A study of Homo sapiens with 12 samples.

Results

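The response of RCC4 cells to the small interfering RNA (siRNA) siMESH1-CDS was followed in 6 RNA-seq libraries, which are the first experiment of a series of 12 libraries. They were chosen by experiment: 3 libraries of cells given siMESH1-CDS and the 3 libraries of cells given a non-targeting siRNA (siNT) that were made beside them. RCC4 is an established human line of clear cell renal cell carcinoma. All cells received 40 pmol of siRNA with a lipid transfection reagent and were collected 72 hours later, so that both groups carried an siRNA and the reagent. The siNT libraries were sequenced on lanes 4, 5 and 6 and the siMESH1-CDS libraries on lanes 6, 7 and 4. The other 6 libraries of the series compare a second MESH1 siRNA, siMESH1-7002, with siNT libraries of its own. One siRNA in one cell line was measured here, and no rescue or untransfected culture was part of this comparison. The labels number the 3 libraries of a group as biological replicates. The sources used here do not say whether the replicates were transfected on separate days, and the p-values below measure the spread between these libraries only.

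MESH1, encoded by HDDC3, is the metazoan relative of the bacterial enzymes that degrade the stringent-response alarmone ppGpp, and in mammalian cells it removes a phosphate from NADPH in the cytosol. In bacteria the stringent response lowers ribosome production and growth when nutrients are short. In mammalian cells NADPH supplies the reducing power for glutathione and thioredoxin, for lipid synthesis and for the making of deoxynucleotides. Genes of DNA replication, protein folding stress, redox defence and lipid metabolism are therefore described first by group below.

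The siRNA is shown because its target site and its seed are the features that decide which transcripts it can pair with. The strand given by the submitters, its reverse complement with the seed (guide positions 2 to 8) in capitals, and the matching stretch of the HDDC3 transcript with the seed match in capitals read 5′ to 3′ as follows.
siMESH1-CDS sense strand: gggaaucacugacauugug
siMESH1-CDS guide strand: cACAAUGUcagugauuccc
HDDC3 target site: gggaatcactgACATTGTg
The site lies at chr15:90932064-90932082 on the minus strand of GRCh38, in exon 2 of 4 of the main HDDC3 transcripts and inside their coding sequence. No other gene of the annotation matched all 19 bases.

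HDDC3 was measured at 8.23, 6.46 and 7.75 CPM in the siNT libraries and 0.158, 0 and 0.316 CPM in the siMESH1-CDS libraries, from 438, 292 and 361 reads against 5, 0 and 11 reads. CPM is the count per 1000000 reads in genes after TMM scaling, and is used as the level of a gene throughout. Every siMESH1-CDS library was below every siNT library, and 2.11% of the siNT mean was left. The fit gave a log2 change of -5.56 ± 0.82 uncorrected, adjusted p = 0.0017, and -3.43 ± 0.43 GC-corrected, adjusted p = 9.0e-04 (edgeR quasi-likelihood test, Benjamini-Hochberg adjustment over all genes, ± is the standard error). An exact two-sided permutation test of the CPM values gave p = 0.10, the smallest p that 3 against 3 libraries allow. The transcript holds 58.1% G and C, and genes of the same GC class fell as a group (median log2 change -1.67), yet HDDC3 stood at percentile 1.29 of its class. Within sequencing lane 4 the log2 difference was -4.60 and within lane 6 it was -5.41.

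The siMESH1-CDS libraries differed from the siNT libraries according to the base composition of the transcripts. Across 10 classes of transcript GC content with equal numbers of genes, the median log2 change ran from 1.13 in the lowest class (24.2 to 40.0% GC) to -3.62 in the highest (61.4 to 74.2% GC). The 3 siMESH1-CDS libraries had slopes of -1.91, -2.51 and -1.31 log2 units per 10 percentage points of GC, where the siNT libraries lay between -0.063 and 0.040 around their own mean. The groups did not overlap, and the difference of -1.91 had the smallest exact permutation p available, 0.10. Replicate 2 was the steepest and replicate 3 the mildest, and the 3 knockdown libraries differed from each other far more than the siNT libraries did. Leaving out replicate 2 gave a difference of -1.61. In the pair that shared lane 4 the slopes were -1.31 against 0.040, and in the pair that shared lane 6 they were -1.91 against 0.023. The siNT libraries also sloped when set against the siNT mean of the siMESH1-7002 experiment, by -1.23 to -1.13. On that scale the siMESH1-CDS libraries had slopes of -3.44 to -2.39 and the siMESH1-7002 libraries of -0.073 to -0.062. The cause of the slope shared by both groups here was not tested.

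**Figure D1:**
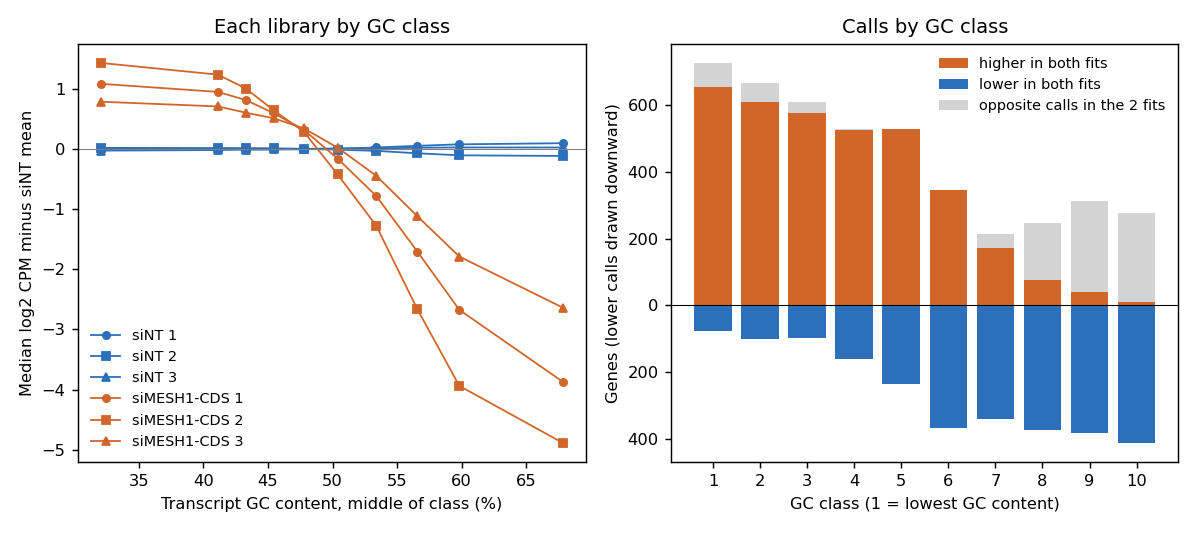
Left: median log2 CPM minus the siNT mean (y axis) in each of 10 classes of transcript GC content (x axis, percent), 1 line per library, siNT in blue and siMESH1-CDS in orange. The 3 siNT lines stay near 0 and the 3 siMESH1-CDS lines fall with GC content, replicate 2 the furthest. Right: number of genes (y axis) called higher (orange, upward) or lower (blue, downward) in both fits, or in opposite directions by the 2 fits (grey), in each GC class (x axis).

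The trend moved with other properties of the libraries. Between 34063155 and 49134129 reads per library were assigned to genes. The share of reads in no annotated gene was 18.4 to 20.8% in the siMESH1-CDS libraries and 14.7 to 15.5% in the siNT libraries. The number of genes with 10 or more counts was 11829 to 12691 against 13374 to 13527. The part of these library properties in the changes was not tested. In bulk RNA a change in RNA per cell and a change in the make-up of the culture cannot be told apart. Of 9 genes used as markers of renal carcinoma epithelium all were measured, with a summed level of 5123 to 5320.4 CPM in siNT and 6253 to 6895 CPM in siMESH1-CDS. VIM, MET and CDH6 made up most of that sum, with siNT and siMESH1-CDS means of 3511 and 3486, 829 and 1952, and 499.9 and 1007 CPM. The other 6 were lower in every siMESH1-CDS library than in any siNT library. PAX8 and PAX2, transcription factors of the kidney lineage, had means of 168 and 18.1 CPM in siNT and 58.4 and 6.07 CPM in siMESH1-CDS. The means of the keratin genes KRT8 and KRT18 were 90.6 and 77.3 against 11.7 and 2.76 CPM, and those of CA9 and NDUFA4L2 were 30.5 and 27.6 against 3.81 and 0.624 CPM. Of the 9 markers 2 were called higher and 6 lower without the GC correction described next, 5 and 3 with it, and 2 and 3 in both fits. Markers of endothelium summed to at most 0.19 CPM and those of erythroid cells to at most 0.058 CPM, with PECAM1, HBA1, HBA2 and HBB at 0 counts in every library. Of the leukocyte markers CD3E was at 0 counts in every library and CD68 made up almost the whole sum, with means of 54.7 CPM in siNT and 3.57 CPM in siMESH1-CDS. COL1A1 was the one fibroblast marker above 1 CPM (20.8 and 3.96 CPM), and LUM was at 0. The part of these markers in the results was not tested.

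Each gene was therefore tested in 2 fits, one on the counts as they stood and one with a smooth correction for transcript GC content in each library. Without the correction 9926 of 13395 genes passed an adjusted p of 0.05, or 74.1% (36.9% higher and 37.2% lower in siMESH1-CDS). With it 8741 of 13196 passed, or 66.2% (39.4% higher and 26.8% lower). The correction moved the median log2 change of all genes by 0.20, from -0.047 to 0.15, so that a GC-corrected change is to be read against 0.15. The 2 fits gave the same call and direction for 6077 genes, 46.1% of those tested, of which 3532 were higher (26.8%) and 2545 lower (19.3%). A further 911 genes were called in opposite directions, 748 of them lower as counted and higher once corrected. The calls of both fits were not spread evenly: the lowest GC class held 654 higher and 76 lower genes, and the highest held 10 and 411. In the lowest class each of the 654 genes higher with correction was also higher without it. In the highest class each of the 411 genes lower with correction was also lower without it. The corrected fit thus set the 654 and the 411, and the uncorrected fit set the 76 and the 10. With correction alone 351 genes were lower in the lowest class and 405 higher in the highest. The 3 libraries of one group lay wholly above the 3 of the other for 83% of all genes, so a gap between the groups alone marked no gene out.

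**Figure D2:**
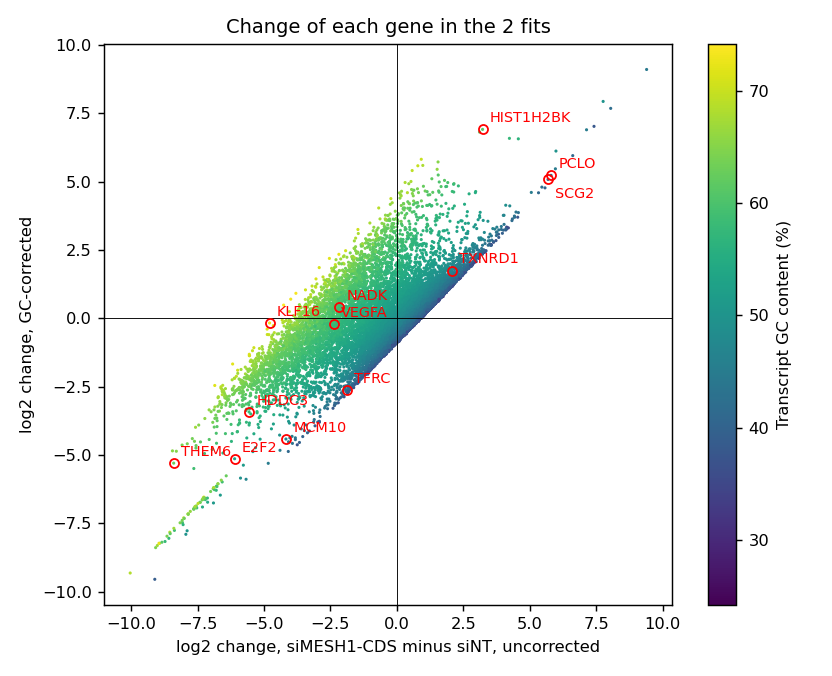
Log2 change of each tested gene (siMESH1-CDS minus siNT) without GC correction (x axis) and with it (y axis), 1 point per gene, coloured by transcript GC content in percent. GC-rich genes (yellow) lie above and left of GC-poor genes (blue), and genes named in the text are circled in red: SCG2 and PCLO are high in both fits, HDDC3, THEM6 and MCM10 low in both, and KLF16 is low only in the uncorrected fit.

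The largest rises that held in both fits were in genes measured at low levels in the control cells. The 12 genes were ranked by the smaller of their 2 changes, and changes of 3.22 to 5.97 uncorrected and 3.22 to 6.91 GC-corrected separated siNT means of 0.485 to 12 CPM from siMESH1-CDS means of 8.34 to 485 CPM. They stood at percentile 99.3 or above of the uncorrected change in their own GC class. SLC16A6, a monocarboxylate transporter family member, was at 1.22, 0.841 and 0.924 CPM in the siNT libraries and 59.1, 76.1 and 52.5 CPM in the siMESH1-CDS libraries. SLC16A6 had a log2 change of 5.97 ± 0.26 uncorrected, adjusted p = 1.8e-04, and 5.47 ± 0.20 GC-corrected, adjusted p = 2.0e-05. PCLO, the presynaptic scaffold protein piccolo, was at 1.39, 1.48 and 1.14 CPM in the siNT libraries and 72.2, 84.2 and 68.2 CPM in the siMESH1-CDS libraries. PCLO had a log2 change of 5.80 ± 0.18 uncorrected and 5.23 ± 0.12 GC-corrected. SCG2, the granin secretogranin II of secretory granules, was at 8.55, 10.1 and 9.6 CPM in the siNT libraries and 496, 504 and 456 CPM in the siMESH1-CDS libraries. SCG2 had a log2 change of 5.69 ± 0.12 uncorrected and 5.08 ± 0.10 GC-corrected. In each of these the lowest siMESH1-CDS library was many times the highest siNT library. STON1, an adaptor of clathrin-mediated endocytosis, PLEKHH2 and IQUB rose from means of 0.485, 0.746 and 1.24 CPM to 8.34, 16.1 and 21.5 CPM. ABCA12, a lipid transporter, was at 9.41, 16.7 and 9.84 CPM in the siNT libraries and 178, 210.1 and 159.6 CPM in the siMESH1-CDS libraries. WDR63, an axonemal dynein component, and the transcription factor genes PLAG1, ZNF433 and ZNF844 had GC-corrected log2 changes of 3.22, 3.26, 3.28 and 3.23. HIST1H2BK, an H2B histone gene, was the single GC-rich gene of the 12 (61.2% GC) and was at 3.12, 3.52 and 2.81 CPM in the siNT libraries and 31.2, 37.3 and 19.9 CPM in the siMESH1-CDS libraries. Its GC-corrected change of 6.91 ± 0.92 was far larger than the 3.22 ± 0.28 measured without correction, and reads shared among near-identical histone genes could have been lost in counting. Within lanes the uncorrected differences of the 12 genes were 2.67 to 5.73 in lane 4 and 3.46 to 5.96 in lane 6.

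**Figure D3:**
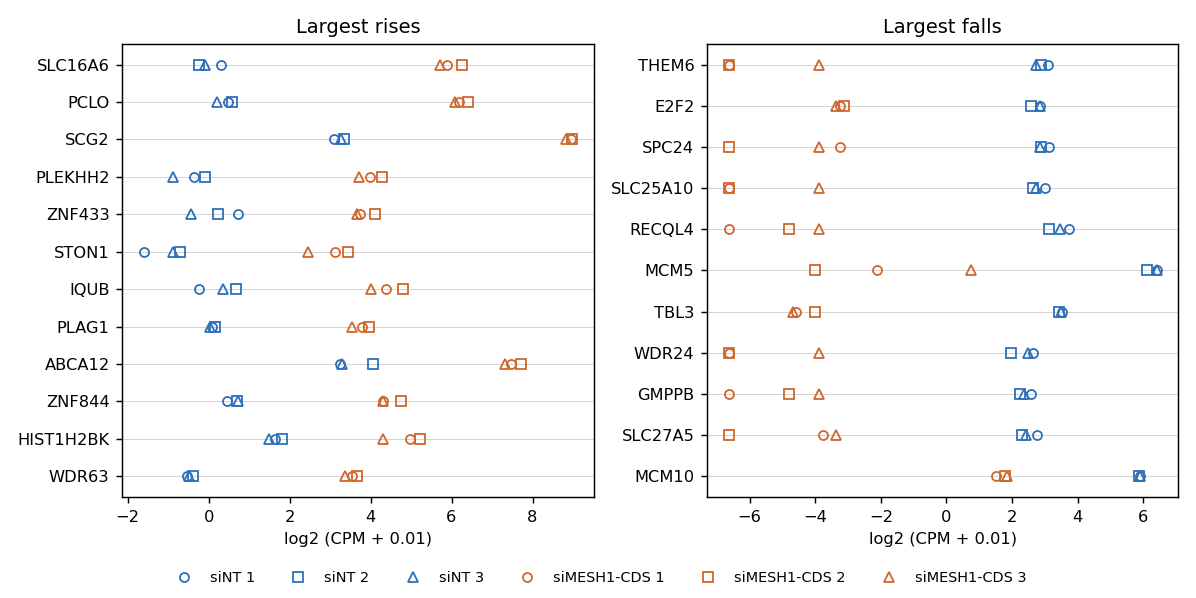
Level of the 12 genes with the largest rises (left) and of 11 genes with the largest falls (right) that held in both fits, as log2 of CPM plus 0.01 (x axis), 1 symbol per library, siNT in blue and siMESH1-CDS in orange. In every gene the 3 orange symbols lie apart from the 3 blue ones, and symbols at the far left of the right panel are libraries with 0 counts.

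The largest falls that held in both fits were in genes that the siMESH1-CDS libraries hardly contained. Of the 11 genes given here, 10 lay in the 4 upper GC classes, whose medians fell as well, and all stood at percentile 1.36 or below of the uncorrected change in their class. For 8 of them no siMESH1-CDS library held more than 3 counts, and the fall is then given as a bound against 3 counts in each library, since the fitted change of such genes depends on the prior count. TBL3, part of the complex that processes the small ribosomal subunit, was at 11.4, 10.9 and 11.1 CPM in the siNT libraries and 0.0316, 0.0520 and 0.0288 CPM in the siMESH1-CDS libraries and was at least 129-fold lower. RECQL4, a DNA helicase, was at least 127-fold lower. SPC24, of the Ndc80 complex of the kinetochore, was at 8.73, 7.35 and 7.22 CPM in the siNT libraries and 0.0949, 0 and 0.0575 CPM in the siMESH1-CDS libraries and at least 89.9-fold lower. THEM6, SLC25A10, which carries dicarboxylates across the mitochondrial membrane, and SLC27A5, an acyl-CoA synthetase, were at least 86.6-fold, 80.8-fold and 65.9-fold lower. GMPPB, which makes GDP-mannose for glycosylation, and WDR24, of the GATOR2 complex upstream of mTORC1, were at least 61.4-fold and 60.7-fold lower. MCM5, a subunit of the replicative helicase, was at 85.9, 70.1 and 85 CPM in the siNT libraries and 0.221, 0.0520 and 1.67 CPM in the siMESH1-CDS libraries, and its siMESH1-CDS libraries differed widely among themselves. E2F2, a transcription factor of S-phase genes, was at 7.18, 6.0 and 7.17 CPM in the siNT libraries and 0.0949, 0.104 and 0.0863 CPM in the siMESH1-CDS libraries. E2F2 had a log2 change of -6.11 ± 0.25 uncorrected, adjusted p = 1.8e-04, and -5.14 ± 0.28 GC-corrected, adjusted p = 4.8e-05. MCM10, which activates the helicase at origins, was the least GC-rich of them (47.2% GC) and was at 60.1, 58.2 and 60.0 CPM in the siNT libraries and 2.85, 3.41 and 3.6 CPM in the siMESH1-CDS libraries. MCM10 had a log2 change of -4.18 ± 0.15 uncorrected and -4.42 ± 0.12 GC-corrected.

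Genes of DNA replication and cell division fell in both fits more often than the 19.3% of all genes that did. The counts per list were 12 of 16 for origin licensing, 27 of 31 for the replisome, 43 of 56 for mitosis and 22 of 30 for homologous recombination and Fanconi repair, with no more than 1 gene higher in any of these lists. The lists had median GC contents of 42.8 to 48.2%, in GC classes whose median gene rose by 0.81 to 0.32 (log2, uncorrected). Their median log2 changes were -2.88, -1.997, -1.30 and -1.16 uncorrected and -2.51, -1.79, -1.67 and -1.94 GC-corrected. MCM4, a helicase subunit, was at 322, 312 and 326 CPM in the siNT libraries and 45.2, 42.5 and 44.3 CPM in the siMESH1-CDS libraries. MCM4 had a log2 change of -2.86 ± 0.079 uncorrected and -2.92 ± 0.059 GC-corrected. CLSPN, the checkpoint adaptor claspin, was at 122, 128 and 129 CPM in the siNT libraries and 15.5, 14.8 and 13.6 CPM in the siMESH1-CDS libraries. CLSPN had a log2 change of -3.11 ± 0.10 uncorrected and -3.70 ± 0.087 GC-corrected. GINS1, of the active helicase, was at 99.7, 98.3 and 101 CPM in the siNT libraries and 20.9, 20.8 and 20.5 CPM in the siMESH1-CDS libraries. GINS1 had a log2 change of -2.26 ± 0.087 uncorrected and -2.66 ± 0.064 GC-corrected. The siMESH1-CDS libraries lay close together for GINS1. KIF2C, a microtubule-depolymerising kinesin of the centromere, was at 200.3, 184 and 201 CPM in the siNT libraries and 16.3, 13.1 and 14 CPM in the siMESH1-CDS libraries. KIF2C had a log2 change of -3.75 ± 0.12 uncorrected and -3.51 ± 0.12 GC-corrected. CDCA8, borealin, had a log2 change of -2.92 ± 0.13 uncorrected and -2.52 ± 0.074 GC-corrected. EXO1, a resection nuclease, was at 80.9, 81.2 and 85.4 CPM in the siNT libraries and 12, 15 and 11.1 CPM in the siMESH1-CDS libraries. EXO1 had a log2 change of -2.70 ± 0.15 uncorrected and -3.23 ± 0.089 GC-corrected. FANCI, of the Fanconi core pathway, had a log2 change of -1.43 ± 0.10 uncorrected and -2.04 ± 0.056 GC-corrected. Without siMESH1-CDS replicate 2 the counts lower in both fits were 12, 27, 51 and 23.

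Genes of entry into S phase were lower in both fits more often than higher. Of 14 genes of deoxynucleotide supply 7 fell and 1 rose in both fits, of 13 of the E2F and RB family 6 fell and 1 rose, and of 10 G1 cyclins and kinases 5 fell and 2 rose. In each of these 3 lists at least 46.2% of the genes were lower in both fits, beside 19.3% of all genes, and in none did the share higher reach the 26.8% of all genes. For the G1 list the fits parted, with 8 lower and 2 higher without correction and 5 lower and 4 higher with it. Its median log2 change was -1.52 uncorrected and -0.23 GC-corrected, and 2 of its genes were called in opposite directions. The median GC content was 51.4%, in a class where 27.7% of genes were lower in both fits. RRM2, the regulated subunit of ribonucleotide reductase, was at 177, 164 and 178 CPM in the siNT libraries and 10.7, 10.6 and 9.44 CPM in the siMESH1-CDS libraries. RRM2 had a log2 change of -4.08 ± 0.10 uncorrected and -4.52 ± 0.076 GC-corrected. TFDP2, a dimer partner of E2F proteins, was the family member that rose, at 71.2, 76.1 and 71.6 CPM in the siNT libraries and 227, 247 and 205 CPM in the siMESH1-CDS libraries. TFDP2 had a log2 change of 1.63 ± 0.10 uncorrected and 1.04 ± 0.049 GC-corrected. CDC25A, the phosphatase that activates CDK2, and CCNE2, cyclin E2, fell to 4.51 ± 0.548 and 3.68 ± 0.901 CPM (SD, n = 3) from 38.1 ± 3.35 and 31.2 ± 1.27 CPM. CCNE2 is GC-poor (38.7%), so that its GC-corrected log2 change of -3.93 exceeded the uncorrected -3.08.

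CDK inhibitors and p53 targets held more rises than falls, with 10 higher and 2 lower in both fits of 25 tested (40.0% higher and 8.0% lower against 26.8% and 19.3% of all genes, median log2 change 0.25 uncorrected and 0.82 GC-corrected). BTG2, an antiproliferative p53 target, was at 15.4, 19 and 15.1 CPM in the siNT libraries and 112, 83 and 121 CPM in the siMESH1-CDS libraries. BTG2 had a log2 change of 2.67 ± 0.19 uncorrected, adjusted p = 2.8e-04, and 3.17 ± 0.12 GC-corrected, adjusted p = 2.3e-05. SESN1, a sestrin that restrains mTORC1, was at 19.1, 20.1 and 18.4 CPM in the siNT libraries and 87.8, 109 and 74.2 CPM in the siMESH1-CDS libraries. SESN1 had a log2 change of 2.24 ± 0.17 uncorrected and 1.39 ± 0.063 GC-corrected. The lowest siMESH1-CDS library exceeded the highest siNT library for both. Replication-dependent histone genes were mostly too low to test: 7 of 24 passed the count filter. The messages of these genes usually end without a poly(A) tail, and the libraries were poly(A)-selected. Of those tested 4 were higher in both fits and none lower, which is a description of genes that passed the filter partly through the siMESH1-CDS libraries. HIST1H2BD was at 0.488, 0.731 and 0.859 CPM in the siNT libraries and 3.26, 4.63 and 3.19 CPM in the siMESH1-CDS libraries. HIST1H3E was at 0.113, 0.111 and 0.193 CPM in the siNT libraries and 1.11, 1.4 and 1.01 CPM in the siMESH1-CDS libraries.

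Genes of protein folding stress did not move as one. Among the sensors and transducers of the unfolded protein response, 6 of 11 were higher in both fits and 0 lower (54.5% higher against 26.8% of all genes, median log2 change 0.74 uncorrected and 0.42 GC-corrected). Their median GC content was 44.2%, in a class where 43.7% of genes were higher in both fits and the median gene rose by 0.81 (log2, uncorrected). ATF6, the membrane-bound sensor, was at 131, 129 and 128 CPM in the siNT libraries and 315, 366 and 275 CPM in the siMESH1-CDS libraries. ATF6 had a log2 change of 1.30 ± 0.12 uncorrected and 0.54 ± 0.046 GC-corrected. MBTPS2, the protease that cleaves it, had a log2 change of 1.30 ± 0.13 uncorrected and 0.47 ± 0.060 GC-corrected. ER chaperones and degradation factors were evenly divided (7 higher and 7 lower of 30, or 23.3% each way, near the shares of all genes). CANX, calnexin, rose from 2230.4 ± 22.8 to 5596 ± 883 CPM (SD, n = 3), and the oxidase gene ERO1LB had a log2 change of 1.998 ± 0.21 uncorrected and 1.11 ± 0.076 GC-corrected. For ATF4 targets the 2 fits parted: 7 were higher and 16 lower without correction, and 17 higher and 5 lower with it, of 32 tested. Over all genes the shares were 36.9% higher and 37.2% lower without correction and 39.4% and 26.8% with it. The list is GC-rich (median 56.8%), 8 of its genes were called in opposite directions, and 6 rose and 2 fell in both fits. These shares of 18.8 and 6.25% were below the 26.8 and 19.3% of all genes. In the GC class that holds the median of the list, 5.76% of genes were higher and 28.4% lower in both fits. The median percentile of the ATF4 targets within their own GC classes was 71.0 (uncorrected change). CTH, the last enzyme of the transsulfuration route to cysteine, was at 8.02, 8.61 and 7.84 CPM in the siNT libraries and 34.7, 35.5 and 33.6 CPM in the siMESH1-CDS libraries. CTH had a log2 change of 2.08 ± 0.13 uncorrected and 1.51 ± 0.10 GC-corrected. The lipoprotein receptor gene VLDLR had a log2 change of 1.26 ± 0.078 uncorrected and 0.78 ± 0.049 GC-corrected. ATF4 itself was at 318, 327 and 327 CPM in the siNT libraries and 154, 31.9 and 330.5 CPM in the siMESH1-CDS libraries, a spread over siMESH1-CDS libraries wider than the distance between the groups, and passed neither fit (log2 change -0.91 ± 0.73 uncorrected, adjusted p = 0.29, and 0.32 ± 0.45 GC-corrected, adjusted p = 0.55). Single libraries decided this: ATF4 was lower without correction when replicate 3 was left out (-1.82, adjusted p = 0.036) and higher with correction when replicate 2 was left out (0.71, adjusted p = 0.0060). With lane in the model the corrected change was 0.72 (adjusted p = 0.022). Lanes 5 and 7 held 1 library each, replicate 2 of either group, so the fit with lane rests on replicates 1 and 3 alone. DDIT3, which encodes CHOP, passed neither fit (log2 change -0.56 ± 0.44 uncorrected, adjusted p = 0.28, and -0.32 ± 0.32 GC-corrected, adjusted p = 0.40), and its 3 siMESH1-CDS libraries of 8.44, 5.31 and 17.5 CPM lay on either side of the siNT libraries. Without replicate 3, DDIT3 was lower in both fits (-1.18 and -0.76).

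Of the stress genes that the study followed by other assays, ATF3, a stress-induced transcription factor, rose in both fits (log2 change 1.22 ± 0.20 uncorrected and 1.57 ± 0.11 GC-corrected). HERPUD1, a target of the unfolded protein response, was at 76.2, 76.3 and 76 CPM in the siNT libraries and 168, 127 and 229 CPM in the siMESH1-CDS libraries. HERPUD1 had a log2 change of 1.20 ± 0.21 uncorrected and 1.13 ± 0.17 GC-corrected. XBP1 had a log2 change of 0.43 ± 0.084 uncorrected and 0.54 ± 0.074 GC-corrected and DNAJB9, which encodes ERdj4, had a log2 change of 1.13 ± 0.18 uncorrected and 0.30 ± 0.070 GC-corrected. The XBP1 call rested on the annotation used for GC content, since its log2 change was -0.20 with the GC content of the longest transcript, and these counts do not separate spliced from unspliced XBP1. Without correction the XBP1 call was lost when library size was the sole scaling (0.17, adjusted p = 0.17). The GC-corrected DNAJB9 call was lost with lane in the model (0.23, adjusted p = 0.11) and with no filter on low counts (0.15, adjusted p = 0.13).

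Proteasome genes were lower in both fits more often than all genes. Of 32 subunit genes 28 were lower and 0 higher with GC correction, and 18 were lower and 0 higher in both fits (56.2% lower against 19.3% of all genes, median log2 change -0.66 uncorrected and -0.99 GC-corrected). Without correction 18 were lower and 4 higher, and 2 of the genes were called in opposite directions by the 2 fits. Their median GC content was 46.7%, in a class whose median gene rose by 0.32 (log2, uncorrected). PSMB4, a subunit of the catalytic core, was at 271, 238 and 264 CPM in the siNT libraries and 76.3, 53.1 and 83.4 CPM in the siMESH1-CDS libraries. PSMB4 had a log2 change of -1.86 ± 0.18 uncorrected, adjusted p = 5.3e-04, and -1.96 ± 0.15 GC-corrected, adjusted p = 1.4e-04. PSMA7, of the outer ring, was at 189.9, 162 and 181 CPM in the siNT libraries and 46.8, 43.1 and 49.3 CPM in the siMESH1-CDS libraries. PSMA7 had a log2 change of -1.94 ± 0.10 uncorrected and -1.43 ± 0.12 GC-corrected, although its GC-corrected change was 0.023 when the GC content of its longest transcript was used. Of 23 chaperonin and heat shock genes 5 fell and 1 rose in both fits (4.35% higher and 21.7% lower). CCT5, a subunit of the cytosolic chaperonin, had a log2 change of -1.28 ± 0.10 uncorrected and -1.69 ± 0.12 GC-corrected, and HSPD1, the mitochondrial chaperonin, had a log2 change of -0.66 ± 0.11 uncorrected and -1.15 ± 0.062 GC-corrected.

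Genes of redox defence and iron handling moved in both directions, with shares that are to be read against the 26.8% higher and 19.3% lower of all genes. NRF2 targets were 11 higher and 4 lower of 29 tested in both fits (37.9 and 13.8%, median log2 change 0.0065 uncorrected and 0.37 GC-corrected). TXNRD1, the NADPH-consuming thioredoxin reductase, was at 502, 468 and 495 CPM in the siNT libraries and 2029, 2140.4 and 1926 CPM in the siMESH1-CDS libraries. TXNRD1 had a log2 change of 2.06 ± 0.093 uncorrected, adjusted p = 1.8e-04, and 1.74 ± 0.061 GC-corrected, adjusted p = 1.9e-05. UGDH, which makes UDP-glucuronate, had a log2 change of 1.40 ± 0.081 uncorrected and 1.11 ± 0.057 GC-corrected. Genes of NADP(H) metabolism were divided, 5 higher and 6 lower of 20 (25 and 30.0%). IDH1, the cytosolic NADP-dependent isocitrate dehydrogenase, was at 112, 102 and 105 CPM in the siNT libraries and 258, 289 and 223 CPM in the siMESH1-CDS libraries. IDH1 had a log2 change of 1.27 ± 0.12 uncorrected and 0.64 ± 0.058 GC-corrected. MTHFD1, of folate metabolism, was at 154, 151 and 161 CPM in the siNT libraries and 76.9, 65.5 and 83.9 CPM in the siMESH1-CDS libraries. MTHFD1 had a log2 change of -1.04 ± 0.11 uncorrected and -1.24 ± 0.088 GC-corrected. NADK, which makes NADP from NAD, fell without correction and did not pass with it (log2 change -2.17 ± 0.28 uncorrected, adjusted p = 0.0012, and 0.41 ± 0.28 GC-corrected, adjusted p = 0.24). Without siMESH1-CDS replicate 3 its corrected change passed in the other direction (0.66, adjusted p = 0.014). On the ferroptosis list 10 genes rose and 4 fell of 30 (33.3 and 13.3%). NCOA4, the receptor that delivers ferritin to the lysosome, was at 433, 498 and 444 CPM in the siNT libraries and 1643, 1797 and 1681 CPM in the siMESH1-CDS libraries. NCOA4 had a log2 change of 1.90 ± 0.10 uncorrected and 1.53 ± 0.067 GC-corrected. TFRC, the transferrin receptor, was at 720.3, 668 and 673 CPM in the siNT libraries and 189, 212 and 161 CPM in the siMESH1-CDS libraries. TFRC had a log2 change of -1.87 ± 0.13 uncorrected and -2.63 ± 0.062 GC-corrected. The median gene of its GC-poor class rose by 0.98. With siMESH1-7002 the log2 change of TFRC in its own experiment was 0.038 (adjusted p = 0.65).

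Glycolytic and respiratory chain genes were lower in both fits more often than the 19.3% of all genes, and HIF targets were nearer to the shares of all genes (26.8% higher). Of 21 glycolytic genes 14 fell and 1 rose in both fits (66.7% lower and 4.76% higher, median log2 change -2.02 uncorrected and -1.23 GC-corrected). The median GC content of this list was 55.5%. In that GC class 28.4% of genes were lower and 5.76% higher in both fits, and the median gene fell by 1.67 (log2, uncorrected). GAPDH was at 3883, 3119 and 3568 CPM in the siNT libraries and 242, 130.5 and 382 CPM in the siMESH1-CDS libraries. GAPDH had a log2 change of -3.81 ± 0.42 uncorrected and -1.88 ± 0.077 GC-corrected. PGK1, of the same pathway, was at 1024, 979.8 and 1029 CPM in the siNT libraries and 356, 293 and 464 CPM in the siMESH1-CDS libraries. PGK1 had a log2 change of -1.45 ± 0.18 uncorrected and -2.03 ± 0.25 GC-corrected. PGK1 is GC-poor (43.3%) and GAPDH GC-rich (56.9%), and both were lower in every siMESH1-CDS library. HIF targets, the programme that is active in clear cell renal carcinoma lacking VHL, had medians of opposite sign in the 2 fits (median log2 change -0.61 uncorrected and 0.25 GC-corrected), with 7 higher and 9 lower of 32 in both (21.9 and 28.1%). Among them CA12, a carbonic anhydrase, fell (log2 change -1.68 ± 0.10 uncorrected and -1.36 ± 0.072 GC-corrected) and MXI1, a MYC antagonist, rose (log2 change 1.62 ± 0.12 uncorrected and 1.4 ± 0.11 GC-corrected). VEGFA fell without correction and did not pass with it (log2 change -2.38 ± 0.22 uncorrected, adjusted p = 4.4e-04, and -0.21 ± 0.24 GC-corrected, adjusted p = 0.47). The corrected fall of VEGFA did pass with the GC content of the longest transcript (-0.77, adjusted p = 0.0058) and with no filter on low counts (-0.50, adjusted p = 0.045). Nuclear-encoded genes of the respiratory chain were 10 higher and 32 lower of 75 tested in both fits (13.3 and 42.7%, median log2 change -0.87 uncorrected and -0.66 GC-corrected). UQCR10, of complex III, was at 54, 50.9 and 53.4 CPM in the siNT libraries and 15.7, 14.6 and 16.3 CPM in the siMESH1-CDS libraries. UQCR10 had a log2 change of -1.77 ± 0.11 uncorrected and -1.60 ± 0.088 GC-corrected. ATP5D, of the ATP synthase, fell to below 1 CPM in every siMESH1-CDS library (68.1% GC, log2 change -6.62 ± 0.47 uncorrected and -2.55 ± 0.22 GC-corrected). Leaving out siMESH1-CDS replicate 1 lowered that count of falling respiratory chain genes to 20.

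Genes of lipid synthesis were lower in both fits more often than higher, and single members moved in either direction. Cholesterol synthesis was 3 higher and 10 lower of 24 tested in both fits (12.5 and 41.7%, beside 26.8 and 19.3% of all genes, median log2 change -1.42 uncorrected and -0.74 GC-corrected), and HMGCS1, which makes HMG-CoA, was at 123, 113 and 118 CPM in the siNT libraries and 339, 411 and 285 CPM in the siMESH1-CDS libraries. HMGCS1 had a log2 change of 1.55 ± 0.15 uncorrected and 0.80 ± 0.058 GC-corrected. MVD, a later decarboxylase, was at 6.84, 5.31 and 5.86 CPM in the siNT libraries and 0.126, 0.0520 and 0.144 CPM in the siMESH1-CDS libraries. MVD had a log2 change of -5.79 ± 0.37 uncorrected and -2.30 ± 0.28 GC-corrected. Without siMESH1-CDS replicate 3 the number of falling cholesterol genes was 16. Fatty acid synthesis was 2 higher and 7 lower of 16 tested (12.5 and 43.8%, median log2 change -1.94 uncorrected and -0.40 GC-corrected). ACLY, which makes cytosolic acetyl-CoA, was at 517, 443 and 484 CPM in the siNT libraries and 40.3, 33.5 and 48.1 CPM in the siMESH1-CDS libraries. ACLY had a log2 change of -3.57 ± 0.16 uncorrected, adjusted p = 1.8e-04, and -2.31 ± 0.17 GC-corrected, adjusted p = 1.4e-04. The desaturase gene SCD5 was at 14.8, 13.7 and 12.9 CPM in the siNT libraries and 63.4, 83.2 and 50.9 CPM in the siMESH1-CDS libraries. SCD5 had a log2 change of 2.26 ± 0.21 uncorrected and 2.22 ± 0.24 GC-corrected. HMGCS1 and SCD5 rose in transcripts of 41.8 and 48.6% GC, MVD and ACLY fell in transcripts of 63.9 and 54.3% GC, and how much of each change goes with GC content beyond the correction was not tested.

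Lists of the translation machinery held more falls than rises in both fits, and not evenly. Cytosolic ribosomal protein genes were 8 higher and 25 lower of 76 tested in both fits (10.5 and 32.9%). Mitochondrial ribosomal protein genes were 5 higher and 23 lower of 74 tested (6.76 and 31.1%). Of all genes 26.8% were higher and 19.3% lower. The median GC contents of these lists were 50.3 and 50.4%. In the GC class of both medians 26.2% of genes were higher and 27.7% lower in both fits, so the shares lower were near that of the class. RPL29 was at 32, 24.7 and 25.6 CPM in the siNT libraries and 0.348, 0.286 and 0.719 CPM in the siMESH1-CDS libraries. RPL29 had a log2 change of -5.92 ± 0.42 uncorrected and -3.84 ± 0.20 GC-corrected. RPLP1 was at 88, 74.9 and 81.5 CPM in the siNT libraries and 16, 13 and 17.8 CPM in the siMESH1-CDS libraries. RPLP1 had a log2 change of -2.39 ± 0.16 uncorrected and -1.58 ± 0.12 GC-corrected. Reads shared with their many processed copies could have been left out of counting. MRPL35 fell (log2 change -1.19 ± 0.10 uncorrected and -1.85 ± 0.083 GC-corrected) and MRPS35 rose (log2 change 1.32 ± 0.12 uncorrected and 0.54 ± 0.051 GC-corrected). Genes of the nucleolus and RNA polymerase I were 5 higher and 12 lower of 31 tested (16.1 and 38.7%). NOLC1, a nucleolar chaperone, had a log2 change of -1.09 ± 0.10 uncorrected and -1.23 ± 0.075 GC-corrected, and POLR1D, a polymerase subunit, had a log2 change of 1.09 ± 0.10 uncorrected and 0.57 ± 0.081 GC-corrected. Among the host RNAs of small nucleolar RNAs (2 higher and 5 lower of 14 tested, median uncorrected log2 change -0.0081), SNHG1 and SNHG15 fell in both fits, with GC-corrected log2 changes of -1.18 and -1.53, and with sequencing lane in the model 3 of the host RNAs fell. Cytosolic tRNA synthetases were 4 higher and 8 lower of 19 tested (21.1 and 42.1%), with the aspartyl synthetase gene DARS at 94.4, 91.6 and 86.9 CPM in the siNT libraries and 241, 277 and 208 CPM in the siMESH1-CDS libraries and FARSA, a phenylalanyl synthetase subunit, at 45.1, 32.1 and 40.3 CPM in the siNT libraries and 0.379, 0.130 and 1.55 CPM in the siMESH1-CDS libraries. That count of falling synthetases was 4 to 5 in 5 of the alternatives, among them each one that left out a siNT library and the one that left out siMESH1-CDS replicate 1, and is then near the share of all genes.

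Genes of the primary cilium rose more often than they fell. Of 32 genes of intraflagellar transport and the BBSome, which carry cargo along the cilium, 17 rose and 1 fell in both fits (53.1% against 26.8% of all genes, median log2 change 0.96 uncorrected and 0.48 GC-corrected). IFT57, of the anterograde complex, was at 35.2, 37.5 and 35.2 CPM in the siNT libraries and 142, 173 and 119 CPM in the siMESH1-CDS libraries. IFT57 had a log2 change of 2.01 ± 0.16 uncorrected and 1.413 ± 0.080 GC-corrected. CLUAP1, of the same complex, was at 24.8, 24.7 and 24.6 CPM in the siNT libraries and 66.5, 68.6 and 72.2 CPM in the siMESH1-CDS libraries. CLUAP1 had a log2 change of 1.48 ± 0.10 uncorrected and 1.06 ± 0.083 GC-corrected. The list is GC-poor (median 42.9%), a range in which 576 of 1319 genes of the same GC class (43.7%) rose in both fits. With GC correction 19 were higher and 2 lower.

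Zinc finger genes were counted after ZNF433 and ZNF844 had appeared among the largest rises, and this family is therefore a description only. Of 420 genes whose symbol is ZNF followed by a number, 231 were higher and 20 lower in both fits (55% and 4.76%, beside 26.8 and 19.3% of all genes, median log2 change 0.94 uncorrected and 0.85 GC-corrected). Their median GC content was 46.7%, in a class where 39.9% of genes were higher and 17.9% lower in both fits. Their median percentile within their own GC classes was 77.5. Many of these genes have close paralogs, and reads that match several of them were not counted.

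Signalling and immune lists had members in both directions, and their shares higher and lower are given beside 26.8 and 19.3% of all genes. Interferon-stimulated genes higher and lower in both fits numbered 12 and 10 of 37 (32.4 and 27%). DDX58, the RNA sensor RIG-I, was at 26.5, 27.3 and 26.4 CPM in the siNT libraries and 129.9, 162 and 102 CPM in the siMESH1-CDS libraries. DDX58 had a log2 change of 2.30 ± 0.18 uncorrected and 1.47 ± 0.063 GC-corrected. SAMD9L had a log2 change of 1.90 ± 0.18 uncorrected and 1.04 ± 0.069 GC-corrected. NF-kB feedback genes and cytokines numbered 3 and 7 of 24 (12.5 and 29.2%), with TNFAIP3, the deubiquitinase A20, higher and MMP1, a collagenase, lower. TNFAIP3 was at 34.8, 36.2 and 35.9 CPM in the siNT libraries and 100.3, 95.2 and 105 CPM in the siMESH1-CDS libraries. TNFAIP3 had a log2 change of 1.49 ± 0.090 uncorrected and 1.69 ± 0.083 GC-corrected. MMP1 was at 58.3, 44.8 and 53.1 CPM in the siNT libraries and 13.8, 13.2 and 16.1 CPM in the siMESH1-CDS libraries. MMP1 had a log2 change of -1.86 ± 0.16 uncorrected and -2.46 ± 0.20 GC-corrected. MMP1 moved the other way with siMESH1-7002 (log2 change 1.18, adjusted p = 3.1e-07). YAP and TAZ targets numbered 6 and 2 of 19 (31.6 and 10.5%), and the medians of the 2 fits had opposite signs (median log2 change -0.19 uncorrected and 0.77 GC-corrected). YAP1 itself was at 242, 233 and 235 CPM in the siNT libraries and 789.5, 1007 and 678 CPM in the siMESH1-CDS libraries. YAP1 had a log2 change of 1.80 ± 0.16 uncorrected and 1.19 ± 0.078 GC-corrected. CRIM1, of the same list, had a log2 change of 0.95 ± 0.084 uncorrected and 0.72 ± 0.065 GC-corrected. MAPK feedback genes and ETV factors numbered 6 and 1 of 19 (31.6 and 5.26%) with medians that also differed in sign (median log2 change -0.27 uncorrected and 1.28 GC-corrected). ETV1 rose (log2 change 2.22 ± 0.16 uncorrected and 1.64 ± 0.10 GC-corrected), as did the ephrin receptor gene EPHA4 (log2 change 1.71 ± 0.15 uncorrected and 1.59 ± 0.11 GC-corrected). Of 13 genes of RNA interference, which siRNA itself engages, 3 rose and 3 fell (23.1% each way), and AGO4 was at 46, 52.1 and 47.9 CPM in the siNT libraries and 175, 187 and 168 CPM in the siMESH1-CDS libraries. AGO4 had a log2 change of 1.86 ± 0.095 uncorrected and 1.32 ± 0.064 GC-corrected. TNRC6B, a silencing scaffold, had a GC-corrected log2 change of 0.60 ± 0.095.

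Lists of the matrix, kidney identity and the lysosome had shares of higher genes close to the 26.8% of all genes, beside 19.3% of all genes that were lower, and single members moved. Collagens, matrix proteins and integrins higher and lower in both fits numbered 9 and 10 of 36 (25 and 27.8%). ITGA1, the collagen receptor subunit alpha 1, was at 77.3, 86.8 and 74 CPM in the siNT libraries and 533, 687 and 437 CPM in the siMESH1-CDS libraries. ITGA1 had a log2 change of 2.80 ± 0.19 uncorrected, adjusted p = 2.6e-04, and 1.94 ± 0.066 GC-corrected, adjusted p = 1.9e-05. COL6A3, a collagen VI chain, was at 9.07, 8.63 and 7.91 CPM in the siNT libraries and 0.949, 0.598 and 0.777 CPM in the siMESH1-CDS libraries. COL6A3 had a log2 change of -3.46 ± 0.24 uncorrected and -2.68 ± 0.20 GC-corrected. Kidney epithelial genes numbered 5 and 4 of 19 (26.3 and 21.1%). CDH2, N-cadherin, rose to nearly the same level in the 3 siMESH1-CDS libraries (1663 ± 10.8 CPM, against 537 ± 17.9 CPM in siNT, SD, n = 3), and HNF4G, a nuclear receptor, had a log2 change of 1.83 ± 0.13 uncorrected and 1.31 ± 0.077 GC-corrected. Lysosome and autophagy genes numbered 9 and 6 of 34 (26.5 and 17.6%). ATP6V1A, the catalytic subunit of the proton pump, was at 63.9, 61.7 and 62.8 CPM in the siNT libraries and 244, 302 and 203 CPM in the siMESH1-CDS libraries. ATP6V1A had a log2 change of 1.99 ± 0.16 uncorrected and 1.37 ± 0.078 GC-corrected.

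**Figure D4:**
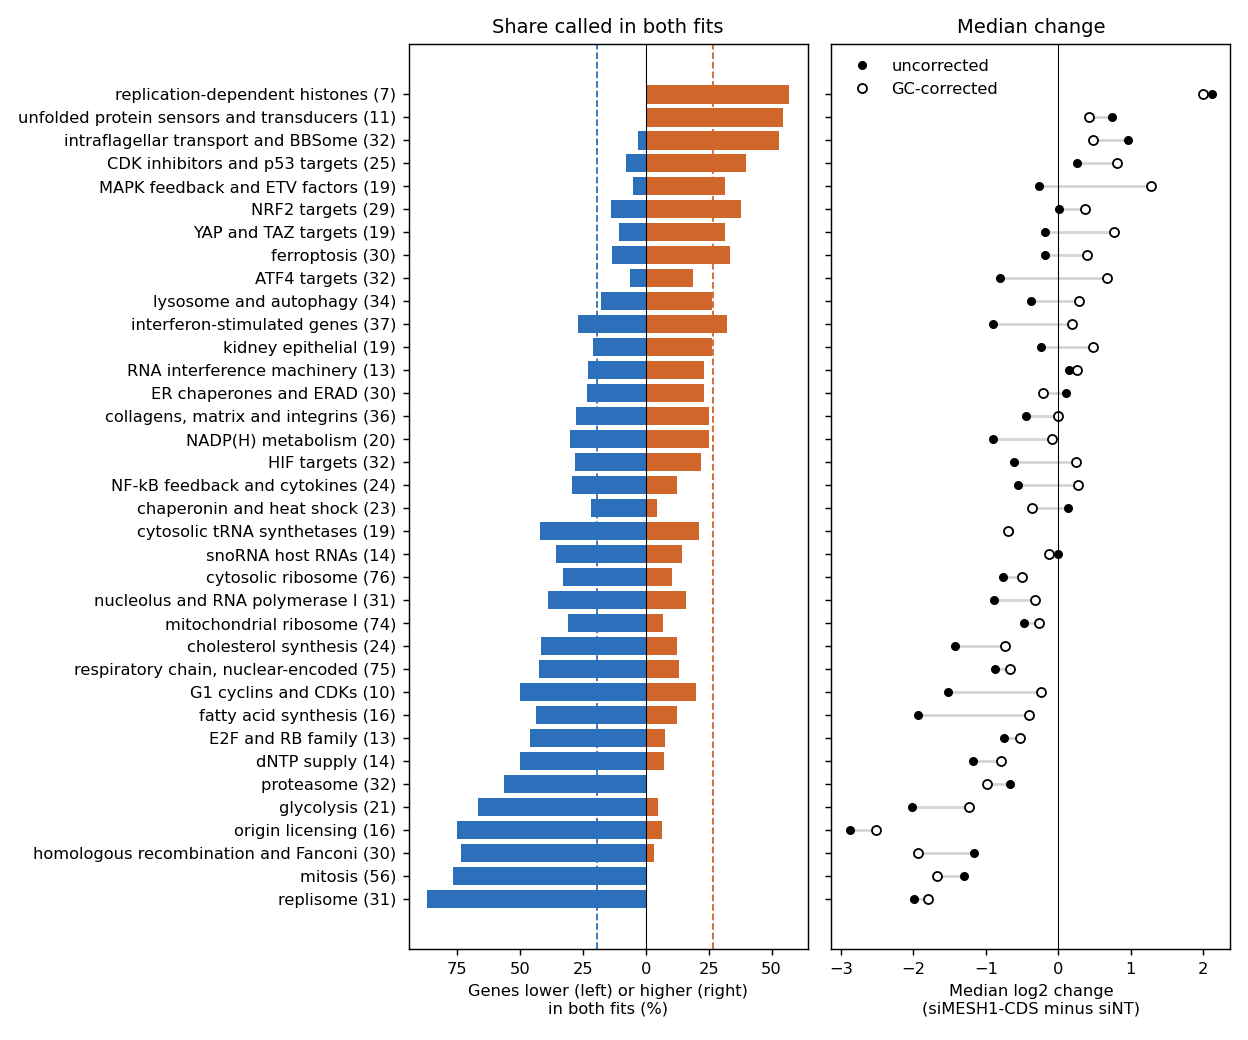
Left: percent of tested genes of each list (number in brackets) called higher (orange, to the right) or lower (blue, to the left) in both fits (x axis), with dashed lines at the shares over all genes. Right: median log2 change of the list (x axis) without (filled) and with (open) GC correction. Replication, mitosis and repair lists extend furthest to the left. The ATF4, HIF, YAP and TAZ, MAPK and interferon lists have medians on opposite sides of 0 in the 2 fits. So do the NF-kB, ferroptosis, kidney epithelial, lysosome, ER chaperone and heat shock lists.

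Other large changes were called only without correction. Among these genes the 5 largest rises were in BAAT, LRRIQ3, SFRP4, LINC00478 and NDST3, at 31.7 to 43% GC, with log2 changes of 1.25 to 1.44 uncorrected and 0.42 to 0.69 corrected. The 5 largest falls were in MRPL41, SIPA1, AMDHD2, SPHK1 and KLF16, at 65.2 to 72.7% GC, with -6.18 to -4.79 uncorrected and -1.67 to -0.17 corrected. KLF16, a zinc finger transcription factor gene, was at 19.5, 16.2 and 18.8 CPM in the siNT libraries and 0.316, 0.234 and 1.4 CPM in the siMESH1-CDS libraries, below every siNT library in each case, and yet stood at percentile 25.2 of its GC class. SPHK1, sphingosine kinase 1, was at 15.5, 11.2 and 15 CPM in the siNT libraries and 0.190, 0 and 1.09 CPM in the siMESH1-CDS libraries and had a GC-corrected adjusted p of 0.050. These corrected calls depended on the settings. The 5 falls passed with correction in 3 to 7 of 13 alternatives, SPHK1 the most often, and all of them passed without siMESH1-CDS replicate 3 (-10.23 to -0.70). The 5 rises passed in 1 to 5 of 14 alternatives. BAAT and SFRP4 did so the most often. BAAT, a bile acid conjugating enzyme, was at 10.7, 21.2 and 13.8 CPM in the siNT libraries and 43.7, 48 and 32.6 CPM in the siMESH1-CDS libraries. The rises stood at percentiles of 56.7 to 74 of their GC classes.

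Of the remaining genes that the study followed, CDK2, the S-phase kinase, was at 78.8, 81.1 and 80.8 CPM in the siNT libraries and 21.4, 18.9 and 28.7 CPM in the siMESH1-CDS libraries. CDK2 had a log2 change of -1.80 ± 0.18 uncorrected and -1.28 ± 0.079 GC-corrected. E2F1 was at 41.4, 36.1 and 42.7 CPM in the siNT libraries and 0.379, 0 and 0.719 CPM in the siMESH1-CDS libraries. E2F1 had a log2 change of -6.78 ± 1.01 uncorrected and -3.65 ± 0.46 GC-corrected.

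Transcripts with a match to the siRNA seed (ACATTGT, the sense-strand letters complementary to guide positions 2 to 8) in their longest 3′ UTR were 2109 of 12251, or 17.2%. Such genes are GC-poor (median 44.6% against 50.5%), so the 2 kinds were set side by side within 3 equal classes of transcript GC content. In the lowest of these, 9.9% of genes with a match and 6.16% of genes without were lower in both fits, and 38.4% and 50.1% were higher. In the middle class 26.8% and 20.8% were lower. In the highest class the order turned, with 23.9% and 29.9%. With GC correction alone the shares lower were 35.7% and 22.4% in the lowest class and 32.7% and 24.8% in the middle class. In the highest class they were again 23.9% and 29.9%. The median 3′ UTR was 3126 bases in genes with a match and 1194 in genes without, and its part in these shares was not tested. HDDC3 itself holds no seed match in that 3′ UTR, and of the genes with the largest changes given above PLEKHH2, ZNF844 and E2F2 hold 1 each, while among others SLC16A6, PCLO, SCG2 and MCM10 hold none. Of 14 tested genes with 1 to 3 mismatches to the whole 19-base site, 5 were lower and 3 higher in both fits, where 19.3% and 26.8% of all genes were. S1PR3, a sphingosine phosphate receptor, and SEMA3A, a secreted guidance protein, were among the lower ones with 3 mismatches (GC-corrected log2 changes -1.42 and -1.59). They were named after their values were seen.

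The change with siMESH1-CDS was compared with that of siMESH1-7002 in the other experiment, whose libraries and controls were sequenced apart. The difference between the siRNAs passed the test for 69.7% of genes without and 60.5% with GC correction, so a difference was the rule and not the exception. The difference for HDDC3 passed without correction and did not pass with it (log2 difference -2.47 uncorrected, adjusted p = 0.0037, and -0.20 GC-corrected, adjusted p = 0.70). Of the 12 largest rises 11 were tested in the siMESH1-7002 experiment and 6 were higher there, PLAG1 by a log2 change of 2.78 and SCG2 by 2.52. PCLO was at 0.56 (adjusted p = 0.16) and STON1 at 0.093 (adjusted p = 0.68). Of the 11 largest falls 10 were lower there too, while SLC27A5 (-0.11) did not pass. The sizes differed widely. E2F2 had a log2 change of -3.42 there and MCM10 of -2.65, and RECQL4, SPC24, MCM5 and SLC25A10 lay between -1.79 and -1.56. THEM6, WDR24, TBL3 and GMPPB were at -0.53, -0.48, -0.43 and -0.39. The experiment and the siRNA cannot be told apart in these differences. Of all genes tested in the siMESH1-7002 experiment 26.6% were higher and 26.7% lower.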

How the data were processed

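Poly(A)-selected stranded libraries of total RNA were sequenced as 50-base single reads. Per the labels and the submitters' processing notes, the authors aligned the reads with HISAT2 to hg19 and counted them per gene symbol with HTSeq. Versions are not given in the sources used here. The deposited values used were these raw counts per gene. Rows for unassigned reads (no feature, ambiguous, low quality, unaligned, not unique) were left out of tests and library sizes. The authors' 2 tables of DESeq2 fold changes and p-values were not used.

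Genes passing edgeR's filterByExpr were tested with edgeR 4.0.16 (quasi-likelihood, TMM, R 4.3.3) on the 6 libraries, siMESH1-CDS against siNT. For the corrected fit, log2 CPM with a prior count of 1 was smoothed by lowess (span 0.3) against the GC content of the transcripts, library by library, and the smooth was used as an offset. Genes passed at a Benjamini-Hochberg adjusted p of 0.05. GC content, 3′ UTRs and the siRNA site came from GENCODE release 29 (GRCh38), joined on symbol: of 23710 symbols 21257 joined directly and 1811 through a synonym, while 642 stayed unmatched. Coordinates were not converted between builds. 199 tested genes had no GC value.

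Named genes were HDDC3, the 12 largest rises and falls called in both fits with non-overlapping groups and at least 5 CPM in the higher group, 2 genes per list with the smallest p in both fits, the genes the study followed by other assays, and the 5 largest rises and falls lost on correction. Some genes that this rule selects are not reported here. Members and lists were chosen with earlier results of these data known. The fits were also run on simulated counts with a GC trend. Those counts held far fewer changed genes and less spread between libraries than these data. That run therefore does not measure how often the calls given here are wrong. The biological coefficient of variation was 0.299 uncorrected, 0.200 GC-corrected and 0.049 in the siMESH1-7002 experiment. Replicate libraries of a group differed beyond counting noise (chi-square per degree of freedom 3.8 to 291), so each was counted as 1 sample.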

Additional observations from a re-analysis of the deposited data

Results flagged for a closer look

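For 30 of the 37 genes compared, the change with siMESH1-CDS differed from the change with siMESH1-7002 by a test of the difference itself (edgeR, adjusted p under 0.05 with and without GC correction, in the same direction). The experiments were sequenced apart, and the siRNA and the experiment cannot be told apart. Of all genes 69.7% passed that test without and 60.5% with GC correction, each fit taken alone. The 12 largest rises and 11 largest falls among the genes compared were chosen by their change with siMESH1-CDS in these same libraries. A difference from siMESH1-7002 was therefore likely for them in advance, and the 30 of 37 is a description only.

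Among the largest rises the log2 change with siMESH1-CDS minus that with siMESH1-7002 was 5.88 for SLC16A6, 5.08 for PCLO, 3.02 for SCG2, 4.07 for PLEKHH2, 3.39 for ZNF433, 3.86 for STON1, 4.105 for IQUB, 2.26 for ABCA12, 3.07 for ZNF844, 1.83 for HIST1H2BK and 2.85 for WDR63. These values are without GC correction. With it the difference was larger for HIST1H2BK (5.48) and smaller for the others, from 5.44 for SLC16A6 to 1.67 for ABCA12. All of these genes were therefore higher with siMESH1-CDS. PLAG1 is the member of the 12 that did not differ in both fits (GC-corrected difference 0.37).

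Among the largest falls the same difference was -7.98 for THEM6, -2.83 for E2F2, -5.75 for SPC24, -6.86 for SLC25A10, -6.78 for RECQL4, -5.50 for MCM5, -7.78 for TBL3, -7.53 for WDR24, -7.13 for GMPPB, -6.84 for SLC27A5 and -1.67 for MCM10. These values too are without GC correction. With it the differences ran from -4.97 for THEM6 to -1.81 for E2F2, and each was smaller in size except that of MCM10 (-1.85). For RECQL4, SPC24 and MCM5 they were -3.52, -3.38 and -3.18. Where no siMESH1-CDS library held more than 3 counts the fitted values depend on the prior count.

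Among the other genes that the study followed, the difference was -1.87 for RRM2, 1.51 for CTH, -3.42 for ACLY, -1.39 for CDK2, -4.42 for E2F1, 0.58 for ATF3, -1.24 for DDIT3 and 0.94 for HERPUD1. These are again values without GC correction. With it the difference was -2.25 for RRM2, 1.01 for CTH, -2.08 for ACLY, -0.81 for CDK2 and -1.26 for E2F1. DDIT3 passed neither fit within the siMESH1-CDS experiment and was higher in the siMESH1-7002 experiment (log2 change 0.53, adjusted p = 1.1e-05).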

How the results depend on the processing

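The counts of genes called moved by less than 1.5 times under every alternative run. Genes called in both fits numbered 4879 to 6708 when 1 library was left out, 5080 with sequencing lane in the model, 6380 with DESeq2, 6153 with library size as the sole scaling of the uncorrected fit, 5319 with at least 10 counts in every library, and 4374 at an adjusted p of 0.01. The changes fitted with lane rest on replicates 1 and 3, since each replicate 2 library was alone on its lane. In the 6 lower GC classes, chosen after seeing the data, 4273 of 7916 genes were called in both fits, 3236 higher and 1037 lower. Scaling by library size alone moved the median uncorrected log2 change of all genes to -0.31. The share of calls that were higher was 49.8% without and 59.5% with GC correction.

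HDDC3 passed in each alternative, from -6.66 to -4.93 uncorrected and -3.88 to -3.12 corrected. Of 1547 values of named genes under alternatives with GC correction 1493 kept direction and call, and of 1323 without it 1320 did. Directions turned in the GC-corrected fit for PSMA7 (0.023), XBP1 (-0.20) and NADK (-0.052) with the GC content of the longest transcript, for NADK (-0.0023) with the count minimum, for ATF4 and VEGFA without siMESH1-CDS replicate 3 (ranges over the left-out libraries -0.12 to 0.71 and -0.47 to 0.026), and for KLF16 (0.51) with a span of 0.6. The cause was not tested.

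Replicate numbers were not used to pair the libraries in the main fits. The correlations of same-numbered deviations were -0.061, 0.35 and 0.18 uncorrected and -0.073, 0.071 and 0.052 GC-corrected. Those of differently numbered libraries ran from -0.38 to 0.31 uncorrected. With the replicate number as a block 9273 genes were called without and 7699 with GC correction, and 5345 in both fits. At this depth 166 genes called lower in both fits held at most 3 counts in every siMESH1-CDS library, and their fall can be given as a bound only. Setting such genes at their bound left the median uncorrected log2 change of each list as it was. No list held more than 5 of them, and a few extreme values can hardly move a median, so this is no check of the calls.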
